A study of Mus musculus with 12 samples.

Results

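Oxidative phosphorylation (OXPHOS) is the last stage of respiration in mitochondria, and most subunits of its 5 protein complexes are encoded in the nucleus. Expression of these nuclear genes was described in mouse bone marrow neutrophils kept with or without granulocyte colony-stimulating factor (G-CSF). Members were taken by gene name from the table of 13935 rows: names that begin with Nduf, a subunit letter and a number, Sdha to Sdhd, names that begin with Uqcr, Cyc1, names that begin with Cox4 to Cox8, and names that begin with Atp5. Of 81 names that matched, 2 with the pseudogene ending were left out, which left 79 genes. By name, 36 belong to complex I, 4 to complex II, 9 to complex III, 13 to complex IV and 17 to complex V. The choice used no measured value. The names do not follow the complexes exactly: Ndufa4 is known to be a subunit of complex IV, Cox7a2l is a factor that joins respiratory complexes into supercomplexes, and neither Atp5s nor Atp5sl is a structural subunit of the ATP synthase.

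The RNA came from cells sorted from femur marrow by their surface CD45, CD11b and Ly6G, which marks neutrophils. Each of 4 groups had 3 libraries: LysMcre Socs3fl/fl cells with G-CSF, Socs3fl/fl cells with G-CSF, LysMcre Socs3fl/fl cells left untreated, and Socs3fl/fl cells left untreated. Treated cells had 10 ng/ml of mouse recombinant G-CSF for 8 h in RPMI medium with fetal bovine serum, and untreated cells were kept in the same medium. All 4 groups thus carry loxP sites at Socs3, an inhibitor of cytokine signalling that acts on the G-CSF receptor pathway, and the Cre of the LysMcre mice is driven from the lysozyme 2 locus in myeloid cells, neutrophils included. For the LysMcre G-CSF libraries the titles also read untreated and leave out Socs3fl/fl, and their description, genotype and condition fields placed them. Libraries are called LysMcre-labelled or floxed here. No label names the mice behind the libraries, so p-values measure the spread between libraries, which may be technical. The age of the mice is not given in the sources used here.

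In the respiratory chain, complex I passes electrons from NADH and complex II those from succinate to ubiquinone, complex III passes them on to cytochrome c, and complex IV to oxygen. Complexes I, III and IV pump protons across the inner membrane, and complex V, the ATP synthase, uses the gradient to make ATP. Neutrophils are known for a small mitochondrial mass and for making most of their ATP by glycolysis. Complex II is also an enzyme of the tricarboxylic acid (TCA) cycle.

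Depth was 19495754 to 26472118 reads per library, and the deposited values are counts scaled by 1 factor per library, called normalized counts. The 14 neutrophil markers examined summed to 1899200 to 2091800 normalized counts in LysMcre-labelled G-CSF libraries, 1809700 to 2096100 in floxed G-CSF libraries, 1845300 to 2166800 in LysMcre-labelled untreated libraries and 1946600 to 2156800 in floxed untreated libraries. Beneath these sums single markers changed: with G-CSF 2 were higher and 7 lower in LysMcre-labelled than in floxed libraries (median log2 -0.27), 4 rose and 7 fell with G-CSF in LysMcre-labelled cells, and 5 rose and 7 fell in floxed cells. Called were 64.3%, 78.6% and 85.7% of the 14 in that order, against 36%, 62.6% and 48.8% of all genes. Socs3 stood at 35984 to 38354 normalized counts in LysMcre-labelled and 18533 to 21391 in floxed libraries with G-CSF, and at 253 to 313 and 201 to 248 in LysMcre-labelled and floxed libraries without it, so the targeted gene was in no case lower under the LysMcre label. Since values are per gene, a transcript without the floxed exons cannot be told from a full one, and every genotype direction below rests on the labels. Lyz2, the locus of the Cre, stood at 507 to 637 normalized counts in LysMcre-labelled and 44425 to 49035 in floxed libraries with G-CSF, and at 5646 to 6602 against 219610 to 226030 without it. Markers of other cells also differed between the groups (single markers are named here after their values were seen), and their part in the results below was not tested. The 8 monocyte and macrophage markers summed to 14575 to 18007 and 16776 to 21153 normalized counts in LysMcre-labelled and floxed G-CSF libraries, and to 20719 to 23429 and 21538 to 22744 in LysMcre-labelled and floxed untreated libraries. In this sum Ly6c2 fell by 2.16 and 1.18 on the log2 scale, while 3 of the 8 rose and 2 fell in LysMcre-labelled cells and 5 rose and 2 fell in floxed cells (median log2 0.42 and 0.49). The 6 progenitor markers summed in the same order to 8325 to 8721, 4949.7 to 5827.5, 3583 to 3808 and 3299 to 3924. Most of that difference was Kit, at 6166 ± 185 and 2933 ± 181 normalized counts in LysMcre-labelled and floxed G-CSF libraries, against 800.1 ± 35.6 and 783 ± 60.8 in untreated ones (SD, n = 3 each). In each genotype 2 of the 6 rose with G-CSF and 1, Myb, fell, and with G-CSF 2 were higher and 1, again Myb, lower in LysMcre-labelled than in floxed libraries. The 8 B cell markers summed to 3088 to 5682.5 over all libraries, and 2 of them fell with G-CSF in LysMcre-labelled cells. The 8 markers of eosinophils, basophils and mast cells summed to 2885 to 2985 and 2729 to 3499 in LysMcre-labelled and floxed G-CSF libraries, against 1952 to 2958 and 1491 to 2181.8 in untreated ones. Of these 8, Siglecf rose in both genotypes, Prg2 in floxed cells, and none fell. The 6 erythroid markers reached 1619 in 1 LysMcre-labelled untreated library, and the 7 T and NK cell markers summed to 183 to 255 with G-CSF and 369 to 502 without it, where Cd3d was the 1 of 7 called in either genotype (log2 -2.98 in LysMcre-labelled and -2.23 in floxed cells). For the monocyte, progenitor, B cell, eosinophil and T cell lists, G-CSF calls in LysMcre-labelled cells covered 62.5%, 50%, 25%, 12.5% and 14.3%. The share of all genes was 62.6%. Floxed cells gave 87.5%, 50%, 0%, 25% and 14.3%, against 48.8%. Between genotypes with G-CSF 50% of the progenitor markers were called, against 36%. In bulk RNA, fewer cells of a type and less RNA per cell cannot be told apart.

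All 79 members passed the filter on low values (a mean of at least 10 normalized counts) and entered the test of 13915 genes. In 74 of them every library had over 100 reads, and the lowest count was 17 reads, in Cox6b2. Per kilobase of principal transcript, the mean level ran from 43.8 (Ndufb2) to 2188 (Ndufb7) normalized counts in complex I and from 206 (Sdhc) to 1245 (Sdhb) in complex II. It ran from 602 (Uqcrb) to 1811 (Uqcrh) in complex III, from 62.4 (Cox6b2) to 4960 (Cox8a) in complex IV and from 19.6 (Atp5s) to 3489 (Atp5b) in complex V. Medians per kilobase were 561, 1064, 687, 1528 and 1354 for complexes I to V. The value of Ndufb2 rests on a principal transcript of 4371 bases. Before that division its mean of 191 normalized counts was above the 106 of Ndufa5.

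Summed over the 79 members, the level was 85689, 77941 and 77988 normalized counts in the LysMcre-labelled G-CSF libraries and 81559, 87259 and 78412 in the floxed G-CSF libraries. Without G-CSF it was 80703, 81307 and 84022 in LysMcre-labelled and 83955, 81486 and 81047 in floxed libraries. The 4 groups overlapped on this scale. As a share of all reads the members took 0.349%, 0.315% and 0.302% in LysMcre-labelled G-CSF libraries, 0.340%, 0.376% and 0.356% in floxed G-CSF libraries, 0.394%, 0.388% and 0.397% in LysMcre-labelled untreated libraries and 0.385%, 0.384% and 0.372% in floxed untreated libraries. On that scale every LysMcre-labelled G-CSF library lay below every untreated one. The scales differ because the summed normalized counts of all genes were higher with G-CSF, up to 25807054 in a LysMcre-labelled G-CSF library against at most 21831163 in an untreated one.

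**Figure D1:**
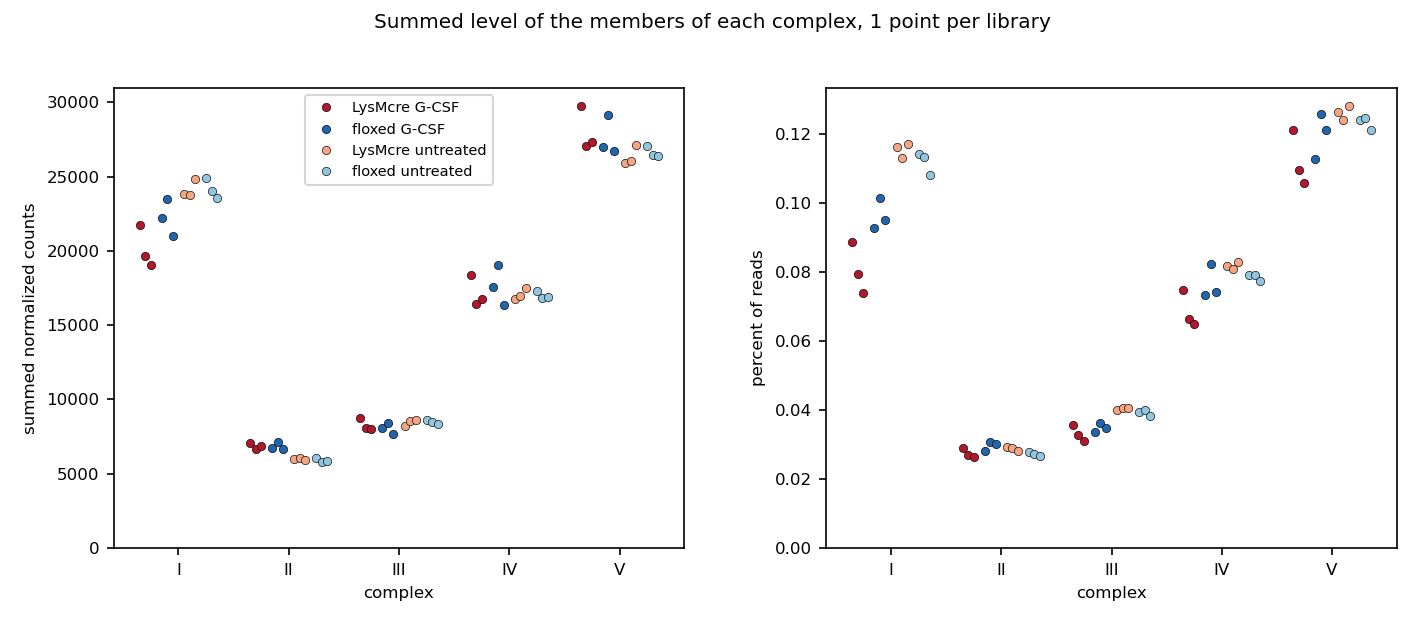
Summed level of the members of each complex (x axis) in every library, as normalized counts (left) and as a percent of all reads (right), 1 point per library and 3 libraries per group. Complex I was lower in all G-CSF libraries than in untreated ones on both scales, and complex II was higher with G-CSF as summed normalized counts. As a percent of reads complex II was higher with G-CSF in floxed cells (0.0281 to 0.0308 against 0.0268 to 0.0278). In LysMcre-labelled cells its shares overlapped (0.0265 to 0.0289 with G-CSF against 0.0281 to 0.0292 without).

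By complex, the summed level of complex I was 20169 ± 1421 normalized counts in LysMcre-labelled and 22219.8 ± 1271 in floxed libraries with G-CSF, and 24125 ± 596 and 24174 ± 693 without it (SD, n = 3 each). Complex II stood higher with G-CSF, at 6876 ± 210.2 and 6843 ± 263 normalized counts in LysMcre-labelled and floxed libraries with G-CSF, against 6000.3 ± 59.9 and 5898 ± 154 without it. Complex III summed to 8274 ± 393 and 8061 ± 363 with G-CSF, and to 8450.4 ± 199 and 8464 ± 128 without it, again with the LysMcre-labelled libraries given first. Complex IV summed to 17172 ± 1034 and 17667 ± 1347 with G-CSF, against 17076 ± 405 and 16994 ± 257 without it. Complex V summed to 28049 ± 1471 and 27619 ± 1318 with G-CSF, against 26359 ± 675 and 26632 ± 380 without it.

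The members of 1 library tended to move together. Replicate 1 of the LysMcre-labelled G-CSF group was the highest of its 3 libraries for 73 of 79 members, against 34.5% of all genes tested, and replicate 2 of the floxed G-CSF group was the highest for 61 of 79, against 27.8%. The median SD of the members between replicates was 0.11 and 0.10 on the log2 scale in LysMcre-labelled and floxed G-CSF groups, and 0.06 and 0.07 in the untreated groups. Counts of calls without each of these libraries are given beside the results that move with them.

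**Figure D2:**
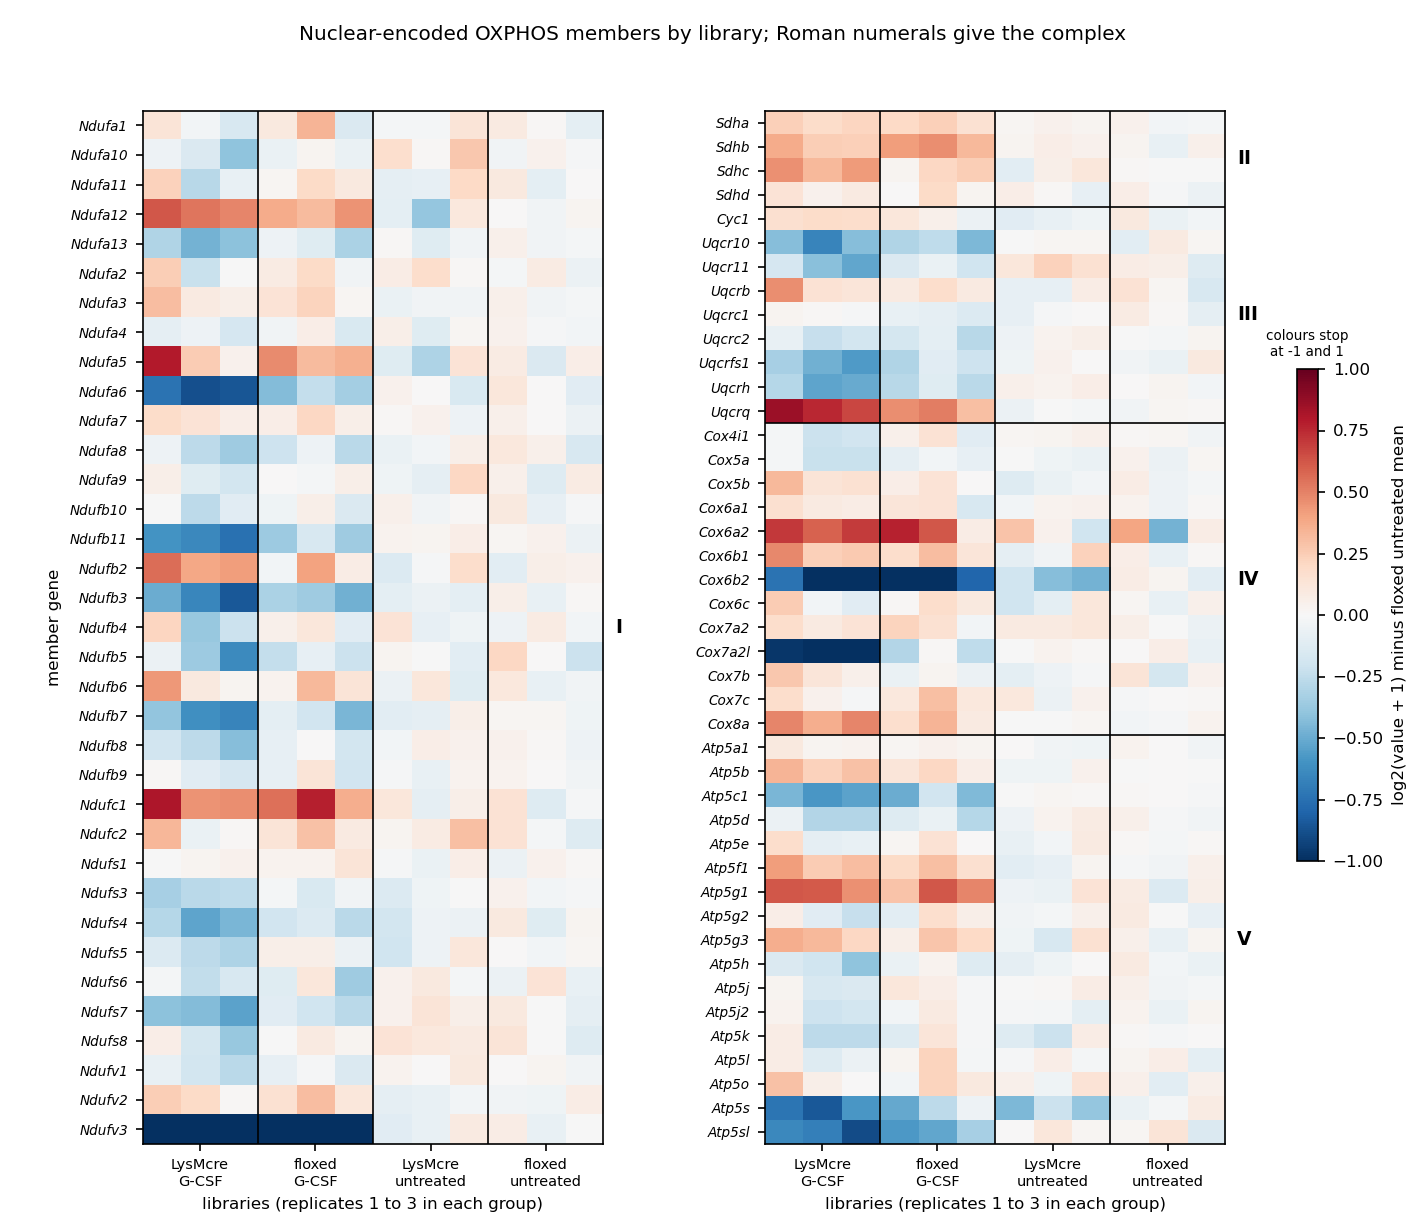
Rows are members and columns libraries, grouped by genotype and treatment; colour is log2(normalized count + 1) minus the mean of the 3 floxed untreated libraries, stopped at -1 and 1. The untreated columns of both genotypes are close to 0, and with G-CSF rows of both colours appear within every complex except II, most deeply in Ndufv3, Cox7a2l and Cox6b2.

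Without G-CSF, no member passed the test between LysMcre-labelled and floxed libraries. None of 79 passed an adjusted p of 0.05 in limma, against a background of 0.115% of all genes tested (0.0647% higher and 0.0503% lower). None of the 79 had an unadjusted p under 0.05, and edgeR and DESeq2 on the recovered reads also called 0. The median log2 difference was 0.00 for the members and -0.01 for all genes, and 77 of the 79 lay within 0.2 of 0.

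With G-CSF, 16 members were lower and 4 higher in LysMcre-labelled than in floxed libraries. That is 25.3% of the members, against 36% of all genes tested (17.1% higher and 18.9% lower). The median log2 difference was -0.07 for the members and -0.01 for all genes; for the members it was -0.16 without LysMcre-labelled G-CSF replicate 1, -0.03 without replicate 2, -0.04 without replicate 3, -0.03 without floxed G-CSF replicate 2 and -0.12 without floxed G-CSF replicate 3. Of the 16 lower members, 11 belong to complex I, 2 each to complexes III and V and 1 to complex IV, and 1 member each of complexes II to V was higher. The count of lower members rested on single libraries: it was 5 without LysMcre-labelled replicate 3, 7 without LysMcre-labelled replicate 2, 6 without floxed replicate 2 and 9 without floxed replicate 1. It was 20 without LysMcre-labelled replicate 1, the library in which the members were highest. The count of higher members was 2 without LysMcre-labelled replicate 1 or 3, or floxed replicate 1. When libraries were scaled to equal totals, which moved the median of all genes to -0.13, 30 members were lower and 1 higher (Uqcrq), the 16 included.

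G-CSF itself changed members in both directions. In LysMcre-labelled cells 20 were higher and 26 lower with G-CSF than untreated, 58.2% of the members against 62.6% of all genes (31.1% higher and 31.6% lower). In floxed cells 9 were higher and 14 lower, 29.1% of the members against 48.8% of all genes (24.1% higher and 24.6% lower). All 9 that rose in floxed cells also rose in LysMcre-labelled cells, where they were 45% of the rises. Of the 14 that fell in floxed cells, 13 fell in LysMcre-labelled cells (92.9% of the floxed and 50% of the LysMcre-labelled falls). The lower count in floxed cells was 9 without floxed G-CSF replicate 3. The median log2 change was -0.08 for the members in LysMcre-labelled and 0.03 in floxed cells, against 0.00 for all genes in both. These medians rested on single libraries. In LysMcre-labelled cells it was -0.17 without G-CSF replicate 1, -0.03 without G-CSF replicate 2 and -0.04 without G-CSF replicate 3. In floxed cells it was -0.02 without G-CSF replicate 2 and 0.01 without untreated replicate 2 or 3. The typical change was small: the median absolute log2 change of the members was 0.22 in LysMcre-labelled and 0.14 in floxed cells, against 0.48 and 0.33 for all genes.

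The directions within the G-CSF responses depended on the scale. With equal totals the median of all genes moved to -0.26 in LysMcre-labelled and -0.09 in floxed cells, and the members split into 4 higher and 54 lower in LysMcre-labelled and 4 higher and 20 lower in floxed cells. The 26 and 14 falls were all among these. Of the rises, Ndufa12, Uqcrq, Cox8a and Atp5g1 stayed called in LysMcre-labelled cells, and Ndufc1, Sdhb, Uqcrq and Atp5g1 in floxed cells. The medians of complexes I to V in LysMcre-labelled cells were then -0.39, -0.05, -0.44, -0.17 and -0.32, so those of complexes II and IV turned in sign.

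**Figure D3:**
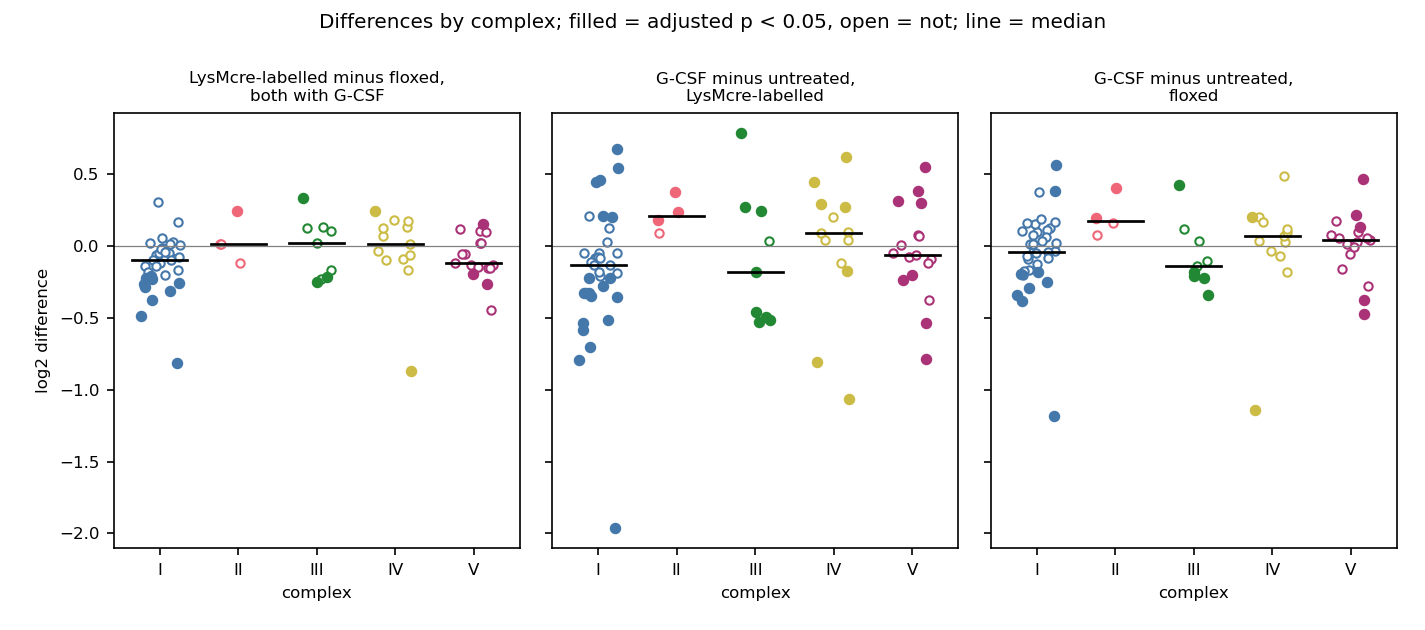
Log2 difference of each member (points) by complex, for LysMcre-labelled minus floxed libraries with G-CSF (left), and for G-CSF minus untreated in LysMcre-labelled (centre) and floxed (right) cells; filled points passed an adjusted p of 0.05 and the line is the median. In LysMcre-labelled cells the medians were -0.13, 0.21, -0.18, 0.09 and -0.06 for complexes I to V on the deposited scale (-0.39, -0.05, -0.44, -0.17 and -0.32 with equal totals), and Ndufv3 lies lowest at -1.96.

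The response to G-CSF itself differed between the genotypes for 7 members, 1 with a higher and 6 with a lower response in LysMcre-labelled cells. That is 8.86% of the members, against 22.4% of all genes (10.9% higher and 11.5% lower). The 6 were Cox7a2l, Ndufv3, Ndufa6, Ndufb11, Uqcr11 and Ndufs7, and the 1 was Uqcrq. With equal totals, which moved the median of all genes to -0.18, 25 were lower and 0 higher. Without LysMcre-labelled G-CSF replicate 1 the lower count was 11, and without replicate 2 of either G-CSF group the higher count was 2.

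**Figure D4:**
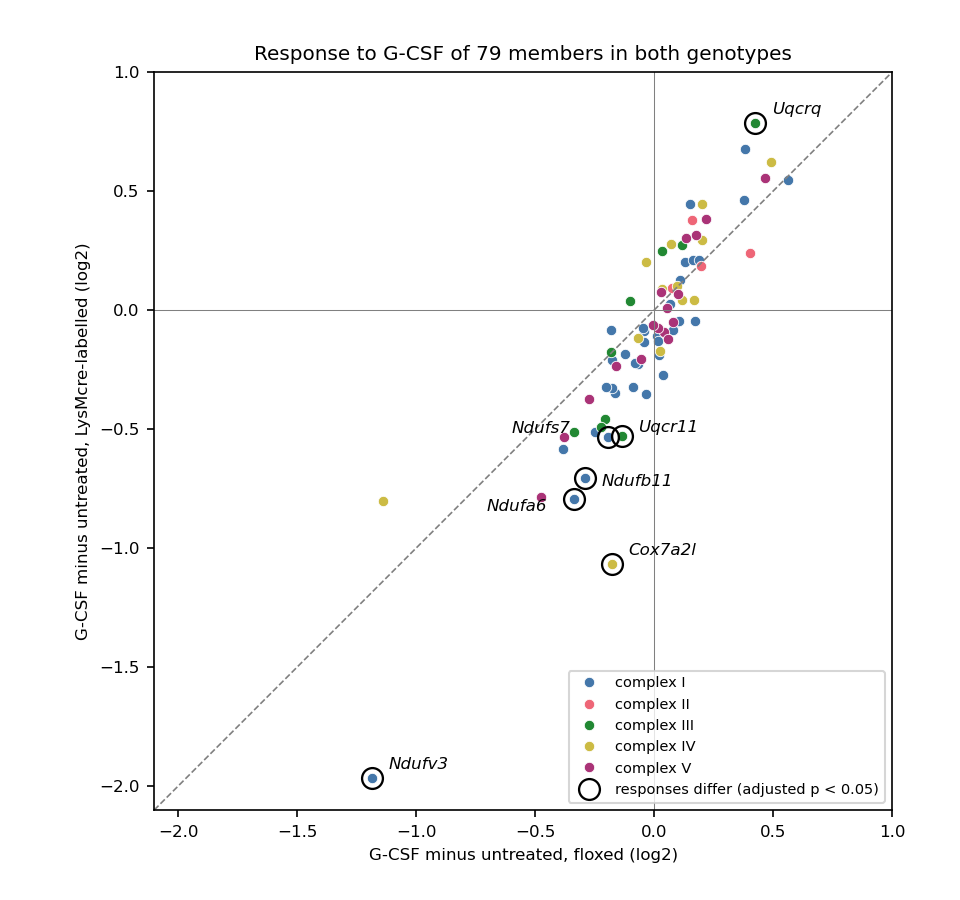
Log2 change with G-CSF of each of the 79 members in LysMcre-labelled cells (y axis) against floxed cells (x axis); colour gives the complex, the dashed line marks equal responses, and rings mark the 7 members whose responses differed at an adjusted p of 0.05. Ndufv3 fell in both genotypes, by 1.96 and 1.18, whereas Cox7a2l lies at -1.07 in LysMcre-labelled and -0.18 in floxed cells. The floxed change of Cox7a2l was not called on this scale but passed with equal totals (log2 -0.27, adjusted p = 0.00982).

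Of the 36 complex I members, 14 fell and 6 rose with G-CSF in LysMcre-labelled cells (55.6% called, against 62.6% of all genes), and 7 fell and 2 rose in floxed cells (25% against 48.8%). With equal totals 28 fell and 1 rose in LysMcre-labelled cells, and 10 fell and 1 rose in floxed cells. With G-CSF 11 were lower and 0 higher in LysMcre-labelled than in floxed libraries (30.6% against 36%), and 14 were lower and 0 higher with equal totals. Among the 7 nuclear-encoded core subunits 4 fell and 1 rose in LysMcre-labelled cells (71.4% called, against 62.6% of all genes). In floxed cells 2 fell and 0 rose (28.6% against 48.8%). Ndufv3, a small subunit of the NADH-binding module, changed most. It had 432, 384 and 333 normalized counts in LysMcre-labelled and 664, 726 and 622 in floxed libraries with G-CSF, against 1405, 1449 and 1624 in LysMcre-labelled and 1607, 1446 and 1519 in floxed libraries without it. The G-CSF groups overlapped neither each other nor the untreated groups. It was 1.75-fold lower in LysMcre-labelled than in floxed libraries with G-CSF (log2 -0.81, SE 0.09, adjusted p = 5.51e-06). With G-CSF it fell 3.9-fold in LysMcre-labelled cells (log2 -1.96, SE 0.09, adjusted p = 4.29e-11) and 2.27-fold in floxed cells (log2 -1.18, SE 0.09, adjusted p = 3.56e-08). The difference between the responses was log2 -0.78, SE 0.13, adjusted p = 0.000447.

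Ndufa6, an accessory subunit of the matrix arm, showed the same order of groups with smaller steps. It had 543, 493 and 500.3 normalized counts in LysMcre-labelled and 671, 769 and 718 in floxed G-CSF libraries, against 936, 911 and 819 in LysMcre-labelled and 983, 909.7 and 838 in floxed untreated libraries. The LysMcre-labelled G-CSF libraries lay below all others. With G-CSF it fell by 0.79 on the log2 scale in LysMcre-labelled cells (SE 0.08, adjusted p = 3.16e-07) and by 0.34 in floxed cells (SE 0.08, adjusted p = 0.00211), and the responses differed (log2 -0.45, SE 0.11, adjusted p = 0.00784).

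Ndufb11, an accessory subunit of the membrane arm, and Ndufs7, a core subunit that carries an iron-sulfur cluster, lie outside the naming rule and are named for their differing responses after their values were seen. Ndufb11 had 1074, 1043 and 968 normalized counts in LysMcre-labelled and 1268, 1458 and 1274 in floxed G-CSF libraries, against 1664, 1657 and 1706 and 1647, 1672 and 1562 in LysMcre-labelled and floxed untreated libraries. Its exons overlap Rbm10 and it has a near-identical copy, Gm6444, so its reads are uncertain where counting could exchange them. Ndufs7 averaged 563 ± 24.5 and 676 ± 36.9 normalized counts in LysMcre-labelled and floxed G-CSF libraries, against 815 ± 25.2 and 774 ± 49.4 in LysMcre-labelled and floxed untreated libraries (SD, n = 3 each). In both genes all LysMcre-labelled G-CSF libraries lay below all floxed G-CSF libraries.

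Ndufb7, the most abundant complex I member per kilobase, and Ndufb3 are accessory subunits of the membrane arm with lower counts under G-CSF. Ndufb7 had 1184, 1016 and 988 normalized counts in LysMcre-labelled and 1458, 1362 and 1137 in floxed G-CSF libraries, against 1445, 1466 and 1626 and 1581, 1580.5 and 1513 in LysMcre-labelled and floxed untreated libraries. With G-CSF the genotypes overlapped in 1 library, and the difference was log2 -0.31, SE 0.09, adjusted p = 0.0129. Ndufb3 fell by 0.58 on the log2 scale in LysMcre-labelled cells (SE 0.09, adjusted p = 3.54e-05) and by 0.38 in floxed cells (SE 0.09, adjusted p = 0.00213).

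The rises of complex I were led by low members. Ndufc1, an accessory subunit of the membrane arm, had 188, 146 and 148 normalized counts in LysMcre-labelled and 157, 184 and 138 in floxed G-CSF libraries, against 116, 101 and 111 and 118, 97.7 and 106 in LysMcre-labelled and floxed untreated libraries. Ndufa12, an accessory subunit of the matrix arm, had 165, 156 and 150.3 and 139, 134 and 147 normalized counts in LysMcre-labelled and floxed G-CSF libraries, against 99.9, 81.7 and 115 and 108, 105 and 109 in untreated ones. For both genes the G-CSF libraries of each genotype lay above its untreated libraries, and the responses were not shown to differ (adjusted p = 0.971 and 0.286 for the interaction). Ndufa4 had 497 ± 20.3 and 519 ± 39.3 normalized counts in LysMcre-labelled and floxed G-CSF libraries and 529 ± 34.2 and 534 ± 13.2 in untreated ones (SD, n = 3 each). It passed no comparison on this scale, and with equal totals it fell in LysMcre-labelled cells (log2 -0.35, adjusted p = 0.000916).

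Of the 4 complex II genes, 3 rose with G-CSF in LysMcre-labelled and 2 in floxed cells and none fell on the deposited scale. That is 75% and 50% called, against 62.6% and 48.8% of all genes. With equal totals 0 rose and 1 fell in LysMcre-labelled cells and 1 rose and 0 fell in floxed cells. Sdha and Sdhb encode the flavoprotein and the iron-sulfur protein that oxidise succinate, and Sdhc and Sdhd the membrane anchors. Sdhb had 1605, 1473 and 1469.8 normalized counts in LysMcre-labelled and 1663, 1718 and 1554 in floxed G-CSF libraries, against 1270.4, 1300.5 and 1282 and 1267, 1179 and 1286 in LysMcre-labelled and floxed untreated libraries. The G-CSF libraries lay above all untreated ones. The change was log2 0.40, SE 0.06, adjusted p = 3.32e-05 in floxed cells and log2 0.24, SE 0.06, adjusted p = 0.00228 in LysMcre-labelled cells, and with equal totals the value in LysMcre-labelled cells was -0.02. On that scale Sdhb was lower in LysMcre-labelled than in floxed libraries with G-CSF (log2 -0.24, adjusted p = 0.00383), and the responses of Sdhb and Sdha differed (log2 -0.33 and -0.18, adjusted p = 0.00611 and 0.0409). Sdha rose by a log2 of 0.18 in LysMcre-labelled and 0.20 in floxed cells (SE 0.05 each, adjusted p = 0.00258 and 0.00209), and neither passed with equal totals. Sdhc had 804, 731 and 785 normalized counts in LysMcre-labelled and 595, 675 and 695 in floxed G-CSF libraries, against 543, 610.3 and 631 and 588, 583 and 584 in untreated ones, and with G-CSF was higher in LysMcre-labelled libraries (log2 0.24, SE 0.08, adjusted p = 0.0212). That call was lost with equal totals and in 3 more of 20 alternatives. Sdhd, at 1401 ± 44.2, 1389.8 ± 100, 1316 ± 68.6 and 1319 ± 56.7 normalized counts in LysMcre-labelled G-CSF, floxed G-CSF, LysMcre-labelled untreated and floxed untreated libraries (SD, n = 3 each), passed no comparison on the deposited scale, and with equal totals fell in LysMcre-labelled cells (log2 -0.17, adjusted p = 0.0423).

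**Figure D5:**
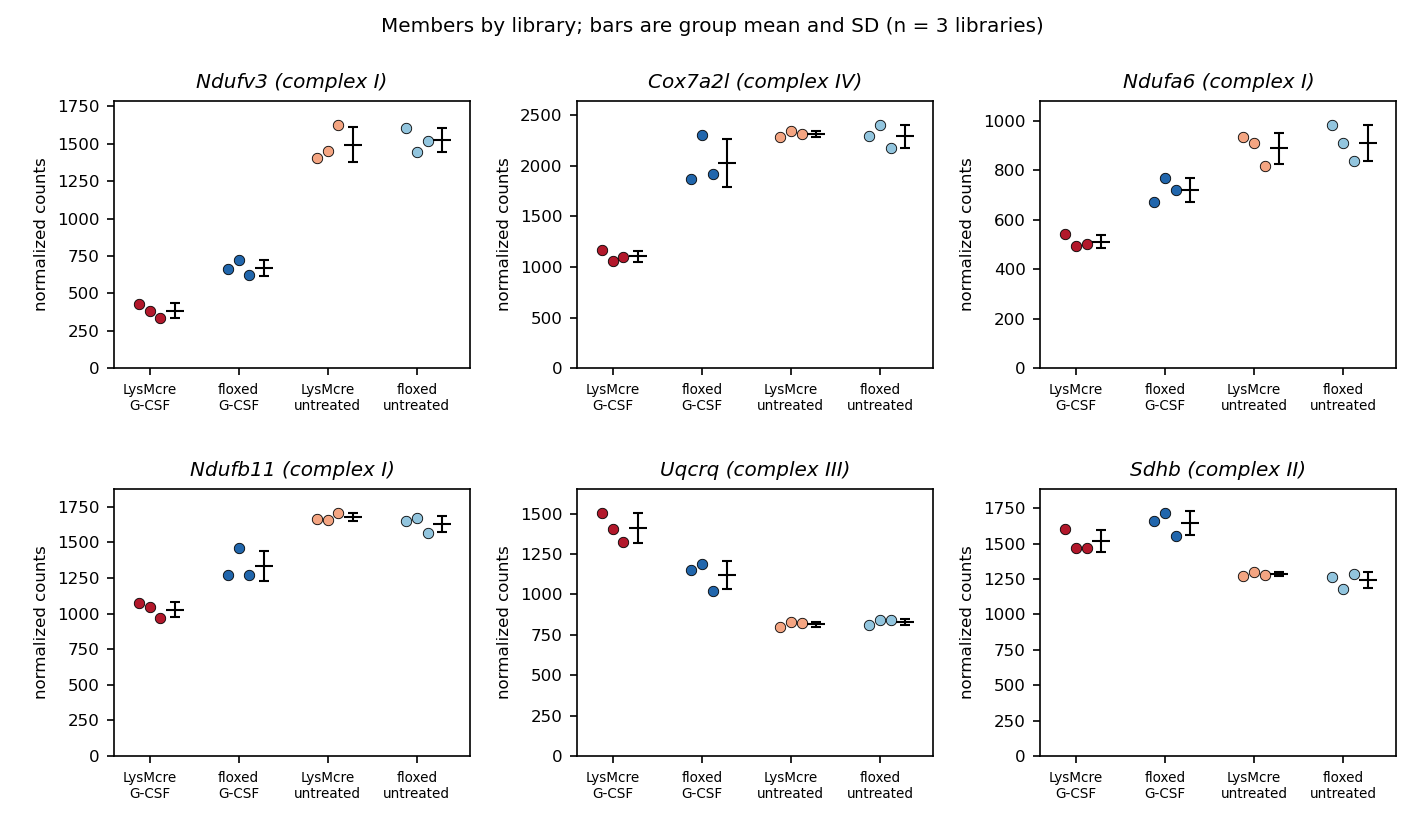
Normalized counts (y axis) of 6 members in every library, with points for libraries and bars for the group mean and SD (n = 3). Ndufv3, Ndufa6 and Ndufb11 were lowest in LysMcre-labelled G-CSF libraries and intermediate in floxed G-CSF libraries, Cox7a2l was low in LysMcre-labelled G-CSF libraries, Uqcrq was highest there, and Sdhb was higher in both G-CSF groups.

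Of the 9 complex III members, 3 rose and 5 fell with G-CSF in LysMcre-labelled cells, and 1 rose and 4 fell in floxed cells (88.9% and 55.6% called, against 62.6% and 48.8% of all genes). With equal totals 1 rose and 6 fell in LysMcre-labelled cells, and 1 rose and 5 fell in floxed cells. Uqcrq, a small subunit, had 1505, 1406 and 1323 normalized counts in LysMcre-labelled and 1148, 1186 and 1022 in floxed G-CSF libraries, against 799, 829 and 822 and 811, 845 and 840.4 in LysMcre-labelled and floxed untreated libraries. The LysMcre-labelled G-CSF libraries lay above all others, and the floxed G-CSF libraries above all untreated ones. It rose 1.73-fold in LysMcre-labelled cells (log2 0.79, SE 0.07, adjusted p = 4.49e-08) and 1.34-fold in floxed cells (log2 0.42, SE 0.07, adjusted p = 6.46e-05). The difference between the responses was log2 0.36, SE 0.09, adjusted p = 0.0109, and 0.19 with an adjusted p of 0.149 when totals were made equal.

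Other complex III subunits fell in the same libraries. Uqcrfs1, the Rieske iron-sulfur protein, had 739.7, 669.9 and 631 normalized counts in LysMcre-labelled and 756, 864 and 807 in floxed G-CSF libraries, against 907, 959 and 936 and 913, 893 and 997 in untreated ones. Uqcrh, the hinge protein beside cytochrome c1, had 893, 755 and 769 normalized counts in LysMcre-labelled and 899, 1003 and 904 in floxed G-CSF libraries, against 1129.5, 1117 and 1143 and 1094, 1108 and 1070.1 in untreated ones. In both genes the LysMcre-labelled G-CSF libraries were lowest, the floxed G-CSF libraries next and the untreated libraries highest, with no overlap. With G-CSF the genotypes differed by log2 -0.25 (SE 0.07, adjusted p = 0.0137) for Uqcrfs1 and -0.22 (SE 0.07, adjusted p = 0.022) for Uqcrh. Uqcr10 and Uqcr11, small subunits, fell by 0.51 and 0.53 on the log2 scale in LysMcre-labelled cells (SE 0.08 and 0.09, adjusted p = 4.59e-05 and 0.000144). Uqcr11 had 355, 298 and 277 normalized counts in LysMcre-labelled and 361, 380.0 and 346 in floxed G-CSF libraries, against 430.1, 467 and 442 and 419, 414 and 364 in untreated ones. Its responses differed by log2 -0.39, SE 0.13, adjusted p = 0.0455, a call lost in 12 of 19 alternatives. Uqcrb, which has 3 near-identical genes in the annotation and exons that overlap Gm10767, rose in LysMcre-labelled cells by a log2 of 0.27 (SE 0.10, adjusted p = 0.0331). That call was lost in 4 of 20 alternatives, among them equal totals (log2 0.01, adjusted p = 0.935).

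In complex IV, 4 of 13 members rose and 3 fell with G-CSF in LysMcre-labelled cells, and 1 rose and 1 fell in floxed cells (53.8% and 15.4% called, against 62.6% and 48.8% of all genes). With equal totals 1 rose and 7 fell in LysMcre-labelled cells, and 0 rose and 2 fell in floxed cells. Cox7a2l had 1168, 1058 and 1095 normalized counts in LysMcre-labelled and 1869, 2305 and 1923 in floxed G-CSF libraries, against 2288, 2345 and 2315 and 2292, 2403 and 2179.6 in LysMcre-labelled and floxed untreated libraries. The LysMcre-labelled G-CSF libraries lay far below the other 9, while floxed G-CSF libraries overlapped the untreated ones. With G-CSF it was 1.83-fold lower in LysMcre-labelled than in floxed libraries (log2 -0.87, SE 0.07, adjusted p = 2.6e-07). It fell 2.09-fold with G-CSF in LysMcre-labelled cells (log2 -1.07, SE 0.07, adjusted p = 4.01e-09), and the change in floxed cells was log2 -0.18, SE 0.07, adjusted p = 0.0552. Scaled to equal totals, Cox7a2l fell in floxed cells too (log2 -0.27, adjusted p = 0.00982). On the deposited scale the responses differed by log2 -0.89, SE 0.10, adjusted p = 1.8e-05, the largest difference among the 79 in size.

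Cox8a, a small membrane subunit and the most abundant member per kilobase, had 3391, 3108 and 3387 normalized counts in LysMcre-labelled and 2715, 3056 and 2571 in floxed G-CSF libraries, against 2408, 2408 and 2444 and 2376, 2398 and 2472 in untreated ones. It was higher in LysMcre-labelled than in floxed libraries with G-CSF (log2 0.25, SE 0.06, adjusted p = 0.00523), which did not pass with equal totals (adjusted p = 0.092). Of isoforms known from muscle, heart or testis, the table held Cox6a2 and Cox6b2. Cox6a2, the heart and muscle isoform, had 80.9, 74.3 and 80.5 normalized counts in LysMcre-labelled and 84.5, 76.2 and 51.8 in floxed G-CSF libraries, against 59.9, 50.7 and 42.7 and 65, 35.1 and 51.8 in untreated ones. Its exons overlap Itgad, so these reads are uncertain. Cox6b2, the testis isoform, had 32.4, 22.4 and 18.3 normalized counts in LysMcre-labelled and 22.8, 20.1 and 31.1 in floxed G-CSF libraries, against 47.3, 40.4 and 39 and 57.6, 55.7 and 50.8 in untreated ones. The G-CSF libraries lay below all untreated ones, with a change of log2 -1.14, SE 0.23, adjusted p = 0.000764 in floxed and log2 -0.80, SE 0.23, adjusted p = 0.00706 in LysMcre-labelled cells. Their widely expressed partners were far higher per kilobase, at 4071 for Cox6a1 against 92.3 for Cox6a2 and at 2216 for Cox6b1 against 62.4 for Cox6b2.

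Cox6b1 rose in LysMcre-labelled cells by a log2 of 0.29 (SE 0.09, adjusted p = 0.0088), while the value for Cox6a1 was 0.09 (SE 0.07, adjusted p = 0.289). With equal totals these values were 0.03 for Cox6b1 (adjusted p = 0.767) and -0.17 for Cox6a1 (adjusted p = 0.0176). Cox4i1, the widely expressed isoform of subunit 4, fell by 0.17 (SE 0.07, adjusted p = 0.0366) in LysMcre-labelled cells, and its exons overlap Emc8. Cox7a2 and Cox7b passed no comparison on the deposited scale, with log2 changes of 0.04 and 0.20 in LysMcre-labelled cells (adjusted p = 0.632 and 0.0531). With equal totals Cox7a2 fell in LysMcre-labelled cells (log2 -0.22, adjusted p = 0.00488), and its responses differed (log2 -0.24, adjusted p = 0.0457).

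In complex V, 4 of 17 members rose and 4 fell with G-CSF in LysMcre-labelled cells, and 3 rose and 2 fell in floxed cells (47.1% and 29.4% called, against 62.6% and 48.8% of all genes). With equal totals 1 rose and 12 fell in LysMcre-labelled cells, and 1 rose and 3 fell in floxed cells. Atp5b, the catalytic beta subunit, had 7849.9, 7278 and 7622 normalized counts in LysMcre-labelled and 6756, 7160.1 and 6514 in floxed G-CSF libraries, against 6022, 6013 and 6392 and 6201, 6234 and 6178 in untreated ones. It rose by a log2 of 0.30 in LysMcre-labelled (SE 0.05, adjusted p = 9.37e-05) and 0.13 in floxed cells (SE 0.05, adjusted p = 0.0436), and neither passed with equal totals. Atp5c1, the gamma subunit that turns inside the catalytic head, went the other way, with 1319.9, 1211 and 1256 normalized counts in LysMcre-labelled and 1289, 1587 and 1338 in floxed G-CSF libraries, against 1812, 1846 and 1828 and 1830.0, 1818 and 1802 in untreated ones. It has a near-identical copy in the annotation. Its change was log2 -0.54, SE 0.07, adjusted p = 5.31e-06 in LysMcre-labelled and log2 -0.38, SE 0.07, adjusted p = 0.000276 in floxed cells.

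The membrane ring of subunit c is encoded by Atp5g1, Atp5g2 and Atp5g3, whose mature proteins are the same. Atp5g1 had 352, 349 and 313 normalized counts in LysMcre-labelled and 278, 351 and 321 in floxed G-CSF libraries, against 221, 218 and 252 and 242, 207 and 237 in untreated ones, a rise of log2 0.55 and 0.46 in LysMcre-labelled and floxed cells (SE 0.10 each, adjusted p = 0.000247 and 0.00161). Atp5g3 rose in LysMcre-labelled cells (log2 0.32, SE 0.08, adjusted p = 0.00327), which did not pass with equal totals. Atp5g2, which has 2 near-identical genes, changed by -0.09 (adjusted p = 0.4), and by -0.35 with equal totals (adjusted p = 0.00692). Per kilobase Atp5g3 was the highest of the 3 at 1641, with Atp5g2 at 673 and Atp5g1 at 59.1. The principal transcripts used had 723, 731 and 4715 bases for Atp5g3, Atp5g2 and Atp5g1. Before that division their means were 1186, 492 and 279 normalized counts. Atp5f1, the b subunit of the stalk, rose by a log2 of 0.38 in LysMcre-labelled and 0.22 in floxed cells (SE 0.06 each, adjusted p = 3.72e-05 and 0.00607). Neither rise passed with equal totals (adjusted p = 0.0766 and 0.0833), and the exons of Atp5f1 overlap Wdr77. Atp5h, the d subunit of the stalk, was lower in LysMcre-labelled than in floxed libraries with G-CSF (log2 -0.20, SE 0.07, adjusted p = 0.0444), a call lost in 9 of 20 alternatives, and 3 near-identical genes make its reads uncertain. Atp5sl, an assembly factor of complex I in human cells, had 284, 277 and 238 normalized counts in LysMcre-labelled and 299, 309.9 and 352 in floxed G-CSF libraries, against 445, 482 and 451 and 449.8, 487 and 402 in untreated ones. It fell by 0.79 and 0.48 on the log2 scale in LysMcre-labelled and floxed cells (SE 0.10 each, adjusted p = 3.31e-06 and 0.000702).

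Reads of 32 of the 79 members are uncertain to some degree, since the strand setting of the counting is not given. Exons of 28 members overlap another gene, and 11 have a gene of at least 95% identity over at least 50% of their length. Ndufv3, Cox7a2l, Ndufa6, Uqcrq, Sdhb and Cox8a are among the 47 with neither.

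Promoters of 5 members are shown because these carried the 3 largest differences in response (Cox7a2l, Ndufv3 and Ndufa6) or were the largest called rises of complexes II and IV in floxed cells (Sdhb and Cox8a). Each runs from 250 bases before to 50 bases after the RefSeq start on GRCm38.p6. Capitals mark matches on either strand to 4 motifs: GCGCANGCG for nuclear respiratory factor 1 (NRF1), CCGGAAG for ETS factors, AAGATGGCG for YY1 and TTCCNGGAA for STAT factors, none of which overlapped another in these promoters.
Ndufv3: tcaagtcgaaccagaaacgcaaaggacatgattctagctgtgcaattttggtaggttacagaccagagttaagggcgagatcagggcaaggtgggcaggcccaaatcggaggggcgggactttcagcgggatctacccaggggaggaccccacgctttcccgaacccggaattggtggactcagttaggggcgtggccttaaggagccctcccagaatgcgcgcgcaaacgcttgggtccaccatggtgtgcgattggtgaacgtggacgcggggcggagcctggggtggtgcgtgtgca
Cox7a2l: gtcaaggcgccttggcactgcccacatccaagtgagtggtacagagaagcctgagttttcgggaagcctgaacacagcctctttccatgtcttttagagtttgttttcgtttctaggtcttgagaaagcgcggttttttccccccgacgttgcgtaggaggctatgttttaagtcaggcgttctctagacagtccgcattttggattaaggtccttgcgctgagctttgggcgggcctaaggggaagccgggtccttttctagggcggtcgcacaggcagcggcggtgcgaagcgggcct
Ndufa6: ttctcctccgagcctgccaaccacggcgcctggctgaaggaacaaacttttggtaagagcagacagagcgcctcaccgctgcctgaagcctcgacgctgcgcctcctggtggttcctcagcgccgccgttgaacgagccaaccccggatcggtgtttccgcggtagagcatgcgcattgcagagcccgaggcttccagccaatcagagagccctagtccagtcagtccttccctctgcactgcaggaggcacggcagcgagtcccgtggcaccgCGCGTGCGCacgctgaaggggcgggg
Sdhb: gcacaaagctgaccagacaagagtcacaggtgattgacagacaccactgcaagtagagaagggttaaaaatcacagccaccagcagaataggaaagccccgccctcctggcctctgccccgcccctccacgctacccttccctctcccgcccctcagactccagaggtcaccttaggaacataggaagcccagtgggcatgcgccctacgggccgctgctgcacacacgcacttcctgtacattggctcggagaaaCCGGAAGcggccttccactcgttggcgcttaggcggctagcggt
Cox8a: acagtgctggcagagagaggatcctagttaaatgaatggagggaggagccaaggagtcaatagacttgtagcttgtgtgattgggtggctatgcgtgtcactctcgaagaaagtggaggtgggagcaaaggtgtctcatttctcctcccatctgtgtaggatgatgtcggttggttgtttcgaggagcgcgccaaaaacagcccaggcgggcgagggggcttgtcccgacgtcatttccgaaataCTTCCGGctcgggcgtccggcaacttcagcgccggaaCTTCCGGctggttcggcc

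The stretches lie at chr17:31519865-31520164 on the plus strand for Ndufv3, chr17:83514284-83514583 on the minus strand for Cox7a2l, chr15:82354242-82354541 on the minus strand for Ndufa6, chr4:140961021-140961320 on the plus strand for Sdhb and chr19:7217567-7217866 on the minus strand for Cox8a. Ndufv3 and Cox7a2l hold none of the 4 motifs in this window. Ndufa6 has the NRF1 letters from base 25 after the start, Sdhb the ETS letters from base 7 after it, and Cox8a the ETS letters from base 5 before and base 33 after it. Promoters of 66 of the 79 members were found. Of these, 28.8% held the NRF1 letters, against 14% of 9555 genes of the table and 6.47% of all 27025 promoters. The ETS letters were in 22.7%, 18.9% and 9.12%, the YY1 letters in 10.6%, 3.35% and 1.5%, and the STAT letters in 1.52%, 1.27% and 1.15% of the same 3 sets. Median GC content was 57.8%, 60.7% and 52.7%. A match describes letters and is not a site of binding.

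The proteins that assemble the complexes were examined as a list of 44 genes in the table. With G-CSF 14 rose and 10 fell in LysMcre-labelled cells, 7 rose and 6 fell in floxed cells, and 5 were higher and 5 lower in LysMcre-labelled than in floxed libraries. These are 54.5%, 29.5% and 22.7% of the list, against 62.6%, 48.8% and 36% of all genes. With equal totals 7 rose and 16 fell in LysMcre-labelled cells, and 6 rose and 9 fell in floxed cells. Its median log2 change was 0.04 in LysMcre-labelled and 0.02 in floxed cells. Tmem70, needed for assembly of the ATP synthase, stood at 398 ± 7.75 normalized counts in LysMcre-labelled and 228 ± 6.82 in floxed G-CSF libraries, against 224 ± 14.5 and 219 ± 10.7 in LysMcre-labelled and floxed untreated ones (SD, n = 3 each). Its rise was called in LysMcre-labelled cells, and the responses differed by a log2 of 0.77 (adjusted p = 0.000182). Sdhaf2, which attaches the flavin to Sdha, averaged 1481 ± 6.74 and 1057 ± 57.7 normalized counts in LysMcre-labelled and floxed G-CSF libraries, against 753 ± 71.2 and 789 ± 29.2 in LysMcre-labelled and floxed untreated ones (SD, n = 3 each). Bcs1l, which inserts the Rieske protein into complex III, averaged 178 ± 28.5 and 289 ± 13.6 normalized counts with G-CSF, against 282 ± 36.3 and 281 ± 27.6 without it, in LysMcre-labelled and floxed libraries (SD, n = 3 each), and its responses differed by a log2 of -0.71 (adjusted p = 0.00824).

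Among the 13 subunits encoded in mitochondrial DNA the median log2 change was 0.23 in LysMcre-labelled and 0.31 in floxed cells. Equal totals moved these medians to -0.03 and 0.21, so that of LysMcre-labelled cells turned in sign. In LysMcre-labelled cells 1 rose with G-CSF (mt-Atp8, at 25.2 ± 12.6 normalized counts with G-CSF against 11.2 ± 5.33 without) and 0 fell. In floxed cells mt-Nd5 and mt-Nd6 rose by a log2 of 0.42 and 0.49 (adjusted p = 0.0196 and 0.0204), 0 of 13 passed between genotypes with or without G-CSF in limma (0 at an unadjusted p under 0.05), and none of these 3 rises passed with equal totals. At an unadjusted p under 0.05 the G-CSF counts were 3 in LysMcre-labelled and 4 in floxed cells. Shares called at the adjusted threshold were 7.69% in LysMcre-labelled and 15.4% in floxed cells, against 62.6% and 48.8% of all genes. Between genotypes 0% were called, against 36% of all genes with G-CSF and 0.115% without it. The most abundant, mt-Co1, averaged 26982 ± 5288 and 26939 ± 5203 normalized counts in LysMcre-labelled and floxed G-CSF libraries and 22077 ± 998 and 21929 ± 1273 in untreated ones (SD, n = 3 each).

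Of 18 genes of the TCA cycle and the pyruvate dehydrogenase complex, 3 rose and 9 fell with G-CSF in LysMcre-labelled cells, and 5 rose and 8 fell in floxed cells, with median log2 changes of -0.15 and -0.06. These are 66.7% and 72.2% of the list, against 62.6% and 48.8% of all genes. Scaled to equal totals, 2 rose and 12 fell in LysMcre-labelled cells, and 4 rose and 10 fell in floxed cells (medians -0.42 and -0.16). Idh3a, a subunit of isocitrate dehydrogenase, averaged 364 ± 8.79 and 236 ± 28 normalized counts in LysMcre-labelled and floxed G-CSF libraries, against 71.5 ± 1.86 and 67.7 ± 11.3 in untreated ones (SD, n = 3 each). Mdh2, malate dehydrogenase, averaged 3480.0 ± 21.6 and 3530.2 ± 294 normalized counts with G-CSF, against 6443 ± 853 and 6395 ± 629 without it, in LysMcre-labelled and floxed libraries (SD, n = 3 each). Of 14 OXPHOS genes that the name rule misses, 5 rose and 5 fell in LysMcre-labelled and 3 rose and 3 fell in floxed cells, with median log2 changes of 0.01 and 0.04 (71.4% and 42.9% called, against 62.6% and 48.8% of all genes). Equal totals gave 2 rises and 6 falls in LysMcre-labelled and 3 rises and 4 falls in floxed cells, with medians of -0.25 and -0.05. Cycs, the electron carrier cytochrome c, rose by a log2 of 0.77 in LysMcre-labelled and 0.50 in floxed cells. Nnt, the proton-linked transhydrogenase of the inner membrane, fell by 1.94 and 1.22 in LysMcre-labelled and floxed cells.

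Of 15 regulators of mitochondrial gene expression, 5 rose and 3 fell with G-CSF in LysMcre-labelled cells, and 2 rose and 3 fell in floxed cells, with median log2 changes of -0.03 and -0.01 (53.3% and 33.3% called, against 62.6% and 48.8% of all genes). With equal totals 2 rose and 7 fell in LysMcre-labelled cells. Myc, a transcription factor of growth, rose by a log2 of 2.10 and 1.97, and Pprc1, a coactivator of the PGC-1 family, by 1.55 and 1.00 in LysMcre-labelled and floxed cells. Polg2, the accessory subunit of the mitochondrial DNA polymerase, averaged 241 ± 13.2 and 418 ± 32.3 normalized counts in LysMcre-labelled and floxed G-CSF libraries, against 635 ± 40.4 and 642 ± 23.9 in untreated ones (SD, n = 3 each), and its responses differed by a log2 of -0.77 (adjusted p = 0.000129). Nrf1, whose letters were counted above, was higher in LysMcre-labelled than in floxed libraries with G-CSF by a log2 of 0.30 (adjusted p = 0.00664). In that comparison 4 of the 15 regulators were higher and 1 lower (33.3% called, against 36% of all genes). Equal totals left 1 higher and 3 lower.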

How the data were processed

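RNA was measured in 12 libraries in 4 groups of 3. The authors deposited a signal: read counts per gene, each library scaled by its own factor. In each library 100% of values were whole multiples of a common step (tolerance 0.01 read), which gave back the whole reads. The submitters' processing notes name mm10; no aligner, counter, annotation or strand setting is given in the sources used here. The 2 columns without values were not used. The column of LysMcre untreated replicate 2 carries the number 3 and was matched by its description.

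The design assumed normalized values, so limma 3.58.1 (R 4.3.3, trended prior) stayed the main test: log2(value + 1), genes with a mean of at least 10 (20 rows left out), all 4 groups fitted together with 8 residual degrees of freedom, and two-sided p-values adjusted by Benjamini-Hochberg across 13915 genes, called under 0.05. Changes of low genes are understated on this scale. edgeR 4.0.16 and DESeq2 1.42.0 on recovered reads, equal totals, quantile normalization, a pseudocount of 10, no filter, 2 groups only, a replicate block and leaving out each library were alternatives. The fit was tested on simulated reads. Depth was 19495754 to 26472118 reads; 3 reads were worth 2.57 to 3.54 normalized counts, counting error only. No 2 replicates agreed within sampling noise, so each library was counted.

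The members and gene lists were chosen with earlier results of these data known. The values of 1 member are not reported here and its row is left out of the heat map; it stays in the counts and sums. Named genes were, per complex, the highest member per kilobase, the 2 largest rises and falls past the threshold in each comparison that involved G-CSF, tissue isoforms with their partners, the subunit c genes and complex II, and at most 2 rises and falls per other list and comparison. Positions and transcript lengths came from GENCODE M21, which matched all 79 members, 1 through a synonym; near-identical genes were sought with blastn 2.17.0. Promoters came from RefSeq.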

Additional observations from a re-analysis of the deposited data

Results flagged for a closer look

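The response to G-CSF differed between LysMcre-labelled and floxed cells, in a test of the difference itself, for 7 of the 79 members. These 7 made up 8.86% of the members, against 22.4% of all genes called. The difference on the log2 scale was -0.8868 for Cox7a2l, -0.78 for Ndufv3, -0.4546 for Ndufa6, -0.4156 for Ndufb11, -0.3945 for Uqcr11, -0.3397 for Ndufs7 and 0.3622 for Uqcrq. The call for Uqcr11 was lost in 12 of 19 alternatives, and that for Uqcrq with equal totals (adjusted p = 0.149). Responses in LysMcre-labelled and floxed cells were -1.07 and -0.18 for Cox7a2l, -1.96 and -1.18 for Ndufv3, and 0.79 and 0.42 for Uqcrq. The summed progenitor markers were also higher in LysMcre-labelled G-CSF libraries (8325 to 8721 normalized counts) than in floxed ones (4949.7 to 5827.5). Kit and 1 more of the 6 were higher and Myb lower (50% called, against 36% of all genes). The part of these markers in the differing responses was not tested.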

How the results depend on the processing

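Of 49 results for named members, 29 kept their direction and call in every alternative run for them (20, or 19 for a difference between responses, which a fit of 2 groups cannot give), 19 lost the call in at least 1, and 1 reversed: Sdhb with G-CSF in LysMcre-labelled cells, at log2 -0.023 with equal totals. Equal totals, by its own construction of another centre, moved counts too: with G-CSF 1 member was higher and 30 lower in LysMcre-labelled than in floxed libraries, 4 rose in floxed cells, 4 rose and 54 fell in LysMcre-labelled cells, and the interaction had 0 higher and 25 lower. With only the 2 groups compared, 8 members were lower in LysMcre-labelled G-CSF libraries, and edgeR gave 2 higher for the interaction; the cause was not tested. Leaving out 1 library in turn gave, for LysMcre-labelled against floxed with G-CSF, 2 to 5 higher and 5 to 20 lower; for G-CSF in LysMcre-labelled cells 15 to 21 higher and 20 to 30 lower; in floxed cells 7 to 13 higher and 9 to 16 lower; and for the interaction 1 to 2 higher and 4 to 11 lower. Deviations of same-numbered libraries from their group means had correlations from -0.14 to 0.32. All 3 were positive only for G-CSF in floxed cells (0.32, 0.20 and 0.06). In no comparison did every library correlate best with its own number. A replicate block gave 3 higher and 13 lower in LysMcre-labelled against floxed libraries with G-CSF, 20 and 27 for G-CSF in LysMcre-labelled cells, 8 and 15 in floxed cells, 1 and 6 for the interaction and 0 without G-CSF, and 2 of the 49 named results lost a call under it. With 3 libraries a group, and counts as low as 17 reads in Cox6b2, small changes of low members may have been missed at this depth.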
